A study of Rattus norvegicus with 6 samples.

Results

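The acute phase plasma proteins considered here are 10 proteins that the liver secretes into blood, encoded by Crp, Lbp, Serpina3n, Orm1, Hp, Hpx, A2m, Saa4, Itih3 and Itih4. Members were taken as every probe set whose platform annotation gave exactly 1 gene symbol, where that symbol was one of the 10. This gave 9 probe sets for 9 of the 14217 genes with a symbol of their own, among 31042 probe sets other than controls, and all 9 passed the filter on low signal. Saa4 shared its probe set with a second symbol and was left out. The symbols were chosen by function with earlier results of the same comparison known, so the differences between groups are given as a description and support nothing on their own.

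Liver RNA of 6 rat samples was measured on 1-colour Affymetrix arrays. The probiotic group (3 samples) had eaten a fat-rich diet for 30 d to raise blood cholesterol and stayed on it for another 30 d, with Lactobacillus casei Zhang, a probiotic lactic acid bacterium, supplied daily by stomach tube in 1 ml of saline. The high-fat group (3 samples) had the same diet over both periods and received 1 ml of saline without the bacterium in the second. Both groups thus ate the diet given to raise blood cholesterol, and neither ate a normal diet. The sources used here do not give strain, sex, age or whether each sample came from its own rat, and the spread between samples may in part be technical. Hepatocyte markers fitted the labelled tissue: 10 of 10 annotated markers, albumin and transthyretin among them, passed the signal filter, with a median log2 difference of -0.00296 between groups.

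In the acute phase response, macrophages release interleukin-6 and interleukin-1 after infection or injury. Interleukin-6 acts on hepatocytes through the transcription factor STAT3, and interleukin-1 through NF-kB and C/EBP factors, and the genes of the plasma proteins are then transcribed more. Species differ in which proteins respond most. Alpha-2-macroglobulin, the product of A2m, is the classical strong responder of the rat and is low in healthy adult rat liver, whereas C-reactive protein is plentiful in rat plasma without inflammation.

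Most of these genes gave some of the brightest signals of the arrays, which bears on how differences between them and between samples can be read. Deposited signals had the same trimmed mean on every array, 500.3, but the highest signal of an array was 66425 to 83659 on 5 arrays and 132609 on that of high-fat sample 2. The 9 members were 1.72 times as bright on that array as their median over the other 5, against 1.39 times for the 155 brightest probe sets and 1.05 times for the 18625 probe sets tested. All 9 had their highest deposited signal in high-fat sample 2, as did 29% of the probe sets tested. After quantile normalization, which gives every array the same distribution of signals, 5 of the 9 did (Crp, Lbp, Serpina3n, Orm1 and A2m), against 23.8% of the probe sets tested.

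The files hold no saturation flag. A signal of at least 50% of the highest on its array was therefore described as near the top of the range, and 29 of the 54 member signals met this. Hp, Hpx and Itih3 met it on 6 of 6 arrays, Orm1 and Itih4 on 4, Serpina3n on 3, and Crp, Lbp and A2m on 0. Hp came closest, at 82.4% to 88.2% of the highest signal in the probiotic group and 82.0% to 90.4% in the high-fat group. Among the brightest 0.5% of probe sets the median range of the normalized signal over the 6 arrays was 0.364 on the log2 scale, against 0.694 among those ranked between 2% and 10% and 0.826 among those ranked between 10% and 30%. On the deposited scale, before all arrays were given 1 distribution, the brightest 0.5% had a median range of 0.725, against 0.696 and 0.825 in the same ranks. The range at the top was thus narrow on the normalized scale only. The deposited range takes in the array of high-fat sample 2, on which these probe sets were 1.39 times as bright as their median over the other 5. The scales therefore do not show what narrows the range. Whether saturation takes part in the small differences of Hp, Hpx and Itih3 was not tested.

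**Figure D1:**
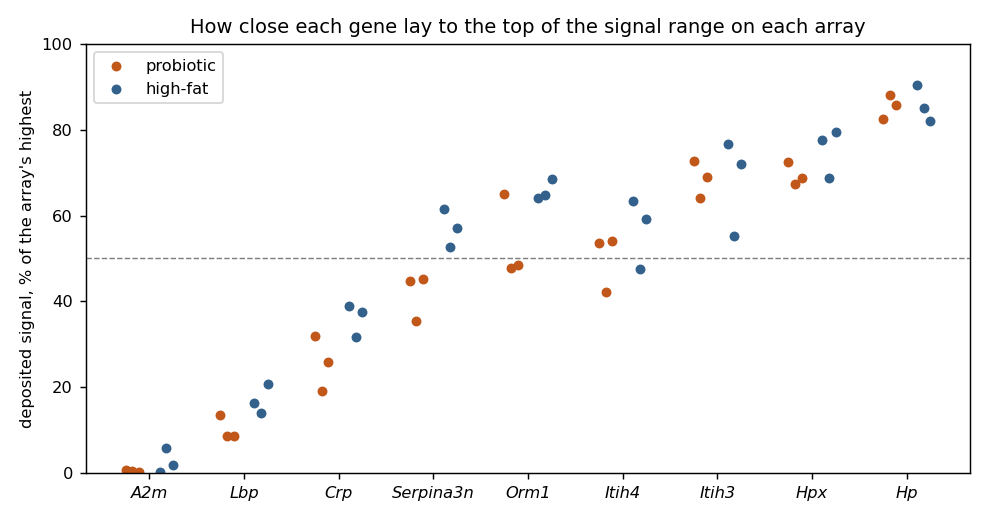
Deposited signal of each of the 9 genes as a percent of the highest signal on the same array, with 3 probiotic (left) and 3 high-fat (right) points per gene. The dashed line marks 50%; all points of Hp, Hpx and Itih3 lie above it and all points of A2m, Lbp and Crp lie below it.

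Set against the high-fat group, 7 of the 9 genes had lower normalized values in the probiotic group, by 1.07 to 3.13-fold, and Hp and Itih3 differed by at most 0.0195 on the log2 scale. Lbp, Crp and Serpina3n were 1.76, 1.49 and 1.36-fold lower with no overlap between the groups on either the normalized or the deposited scale, though for Lbp the nearest samples of the groups were almost equal. A2m had the largest difference, 3.13-fold lower, and the groups overlapped. In whole liver tissue, fewer cells of a type and less RNA per cell cannot be told apart. The median log2 difference was -0.259 over the 9 genes, and -0.213 without A2m, against 0.00416 over the 18625 probe sets tested, of which 49.5% were lower. At an adjusted p under 0.05 (limma, Benjamini-Hochberg over all probe sets tested), 0 of the 9 were called, and the background was 0.0215%. The lowest adjusted p of a member was 0.726 in limma. At an unadjusted p under 0.05, 3 of the 9 were lower in the probiotic group, and the background was 3.86%.

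Groups did not overlap, with the probiotic group lower, for 5 of the 9 genes on the normalized scale (background 6.7%) and for 3 on the deposited scale (background 6.37%), and with the probiotic group higher for 0 on the normalized scale (background 6.02%). Hpx and Itih4 made up the difference between the scales. Nothing is read from these counts, since the choice of genes knew the comparison. Without normalization between arrays or with median centring, 9 of 9 genes had lower values in the probiotic group, and the signs of Hp and Itih3 turned. The median over the 9 genes was then -0.436 and -0.387. A fit with the Actb gap, the log2 signal of the 3' control probe set of Actb minus that of the 5' one, as covariate gave a smaller median: 8 of 9 were lower and the median was -0.117. This gap, which is larger where RNA is more broken down, averaged 2.51 ± 0.504 in probiotic samples and 1.80 ± 0.279 in high-fat samples (SD, n = 3 each), with an exact two-sided permutation p of 0.1, the smallest that 3 against 3 samples allow. Every probiotic sample had a larger Actb gap (2.08 to 3.07) than every high-fat sample (1.48 to 1.97). The part of this gap and that of the group can therefore not be told apart, and it was not tested beyond the covariate. The same gap for Gapdh averaged 1.17 ± 0.463 in probiotic and 0.59 ± 0.14 in high-fat samples (SD, n = 3 each), with an exact two-sided permutation p of 0.2. Without high-fat sample 2, 8 of 9 were lower with a median of -0.178.

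**Figure D2:**
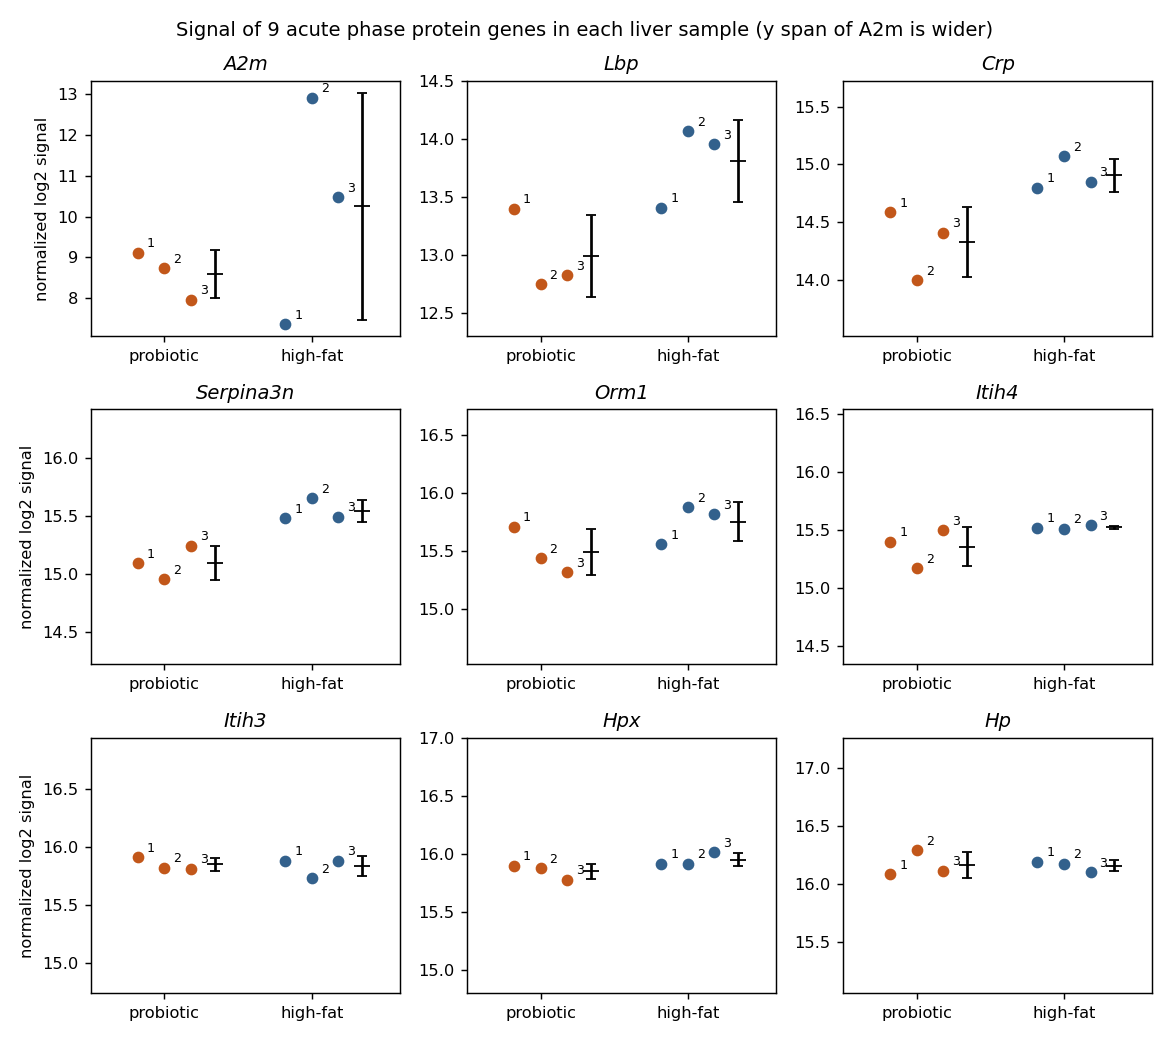
Normalized log2 signal of 9 genes in each sample (points, numbered by sample), with mean and SD beside each group of 3. A2m spans 5.56 log2 units within the high-fat group, whereas Lbp, Crp and Serpina3n separate the groups by smaller amounts and Hp, Hpx and Itih3 stay nearly level.

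The protease inhibitors among the members differed most in how they varied. A2m encodes alpha-2-macroglobulin, a large plasma protein that traps proteases of many kinds. It had deposited signals of 545.3, 397.8 and 223.3 in probiotic samples 1, 2 and 3, against 155.1, 7653 and 1459 in high-fat samples 1, 2 and 3. Thus high-fat sample 2 and, less so, high-fat sample 3 were far above all others, and high-fat sample 1 was the lowest of the 6. On the normalized log2 scale the means were 8.60 ± 0.594 in probiotic and 10.25 ± 2.79 in high-fat samples (SD, n = 3 each), for a difference of -1.65 with a 95% interval from -4.11 to 0.81. The value rests on single samples: it was -0.302 without high-fat sample 2, -3.10 without high-fat sample 1 (adjusted p = 0.279, limma) and -0.208 with the Actb covariate.

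Other members of the alpha-macroglobulin family did not show the A2m pattern. Mug1, a murinoglobulin of rodents whose plasma protein declines in the acute phase, had normalized log2 signals of 14.49, 11.52 and 12.32 in probiotic samples 1, 2 and 3, against 14.20, 14.75 and 13.84 in the high-fat samples. Probiotic samples 2 and 3 were low and probiotic sample 1 lay among the high-fat samples. The difference was -1.48 (SE 0.62, adjusted p = 0.726, limma), and signal of near-identical murinoglobulin genes cannot be assigned to Mug1 with certainty. Pzp, a further alpha-macroglobulin, named here after its values were seen, had a difference of -0.12 (SE 0.12), with 16.19, 15.86 and 16.23 in probiotic samples and 16.23, 16.19 and 16.23 in high-fat samples.

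Serpina3n encodes a serine protease inhibitor that hepatocytes secrete in inflammation. Its deposited signals were 35526, 28466 and 37734 in probiotic samples 1, 2 and 3, against 40906, 69770 and 45646 in the high-fat samples. Every probiotic sample was below every high-fat sample, and high-fat sample 2 was the highest. Normalized log2 signals averaged 15.09 ± 0.142 in probiotic and 15.54 ± 0.0942 in high-fat samples (SD, n = 3 each), for a difference of -0.44 (95% interval -0.72 to -0.17). It was -0.284 with the Actb covariate and between -0.508 and -0.365 with any single sample left out.

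Promoter sequences were available from the RefSeq table of build GRCr8 for 6 of the 9 genes (Serpina3n, Itih4, Crp, Orm1, Hpx and Itih3), each with 250 bases before and 50 after the start. A2m, Hp and Lbp had no entry. The promoters of Serpina3n and Itih4 are shown because both hold the same 9 bases, a match to the STAT element TTCNNNGAA that also contains the interleukin-6 response core CTGGGAA on the opposite strand. Those of Crp and Orm1 are shown for contrast, since neither motif occurs in their windows. The windows of Hpx and Itih3, which are not shown, also lack both motifs. Capitals mark matches to TTCNNNGAA, CTGGGAA, TTNNGNAA (C/EBP) and the NF-kB motif (GGGA and CC with 4 bases between) on either strand. Bases are written 5′ to 3′ along the gene. The Serpina3n window is chr6:129088142-129088441 (plus strand), that of Itih4 chr16:6086735-6087034 (plus), that of Crp chr13:87693812-87694111 (plus) and that of Orm1 chr5:81788259-81788558 (plus).
Serpina3n: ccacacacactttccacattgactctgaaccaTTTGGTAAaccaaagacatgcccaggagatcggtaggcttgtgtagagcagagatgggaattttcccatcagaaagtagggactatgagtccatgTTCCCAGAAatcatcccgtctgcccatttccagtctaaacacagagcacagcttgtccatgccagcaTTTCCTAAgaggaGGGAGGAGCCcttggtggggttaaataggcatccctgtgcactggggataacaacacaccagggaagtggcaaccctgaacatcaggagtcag
Itih4: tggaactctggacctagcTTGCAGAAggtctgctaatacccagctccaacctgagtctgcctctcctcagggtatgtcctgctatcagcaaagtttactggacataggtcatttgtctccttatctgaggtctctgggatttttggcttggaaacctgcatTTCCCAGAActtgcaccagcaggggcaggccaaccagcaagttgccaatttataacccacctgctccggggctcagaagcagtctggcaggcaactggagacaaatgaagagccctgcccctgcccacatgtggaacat
Crp: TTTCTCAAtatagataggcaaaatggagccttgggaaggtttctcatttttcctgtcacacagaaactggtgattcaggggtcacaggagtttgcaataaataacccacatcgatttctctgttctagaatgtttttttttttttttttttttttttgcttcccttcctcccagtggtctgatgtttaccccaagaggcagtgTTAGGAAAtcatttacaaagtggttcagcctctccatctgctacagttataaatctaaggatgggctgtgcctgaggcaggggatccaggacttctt
Orm1: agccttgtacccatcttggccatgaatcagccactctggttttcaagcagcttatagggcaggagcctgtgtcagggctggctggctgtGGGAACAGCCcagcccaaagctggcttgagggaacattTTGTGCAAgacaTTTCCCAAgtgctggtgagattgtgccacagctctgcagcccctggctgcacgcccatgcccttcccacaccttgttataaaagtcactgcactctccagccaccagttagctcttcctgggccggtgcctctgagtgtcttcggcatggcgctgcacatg

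The shared sequence TTCCCAGAA begins at position -123 from the start of Serpina3n and at position -89 from that of Itih4. It occurs on either strand in 385 of the 33469 promoters of the table (1.15%). The broader element TTCNNNGAA, which reads the same on both strands and overlaps the core here, occurs in 8.87% of all promoters, and CTGGGAA in 11.3%. Matches to TTNNGNAA were present in 5 of the 6 member promoters (Itih3 had none), against 41.3% of all promoters. The NF-kB motif was present in those of Orm1 and Serpina3n, against 19.3% of all, and that of the liver factor HNF1 (GTTAAT and TT with 2 bases between) in 0 of the 6, against 0.956%. These are matches of letters and not known sites. Serpina3n and Itih4, with the same 9 bases, had log2 differences of -0.44 and -0.17. Without them in this window, Crp, Orm1, Hpx and Itih3 had -0.57, -0.26, -0.10 and 0.02. A link between the motif and the differences was not tested.

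Lbp and Crp encode proteins that bind components of bacteria. Lbp encodes the lipopolysaccharide-binding protein, which carries endotoxin of Gram-negative bacteria to the receptor CD14. Its deposited signals were 10739, 6885 and 7253 in probiotic samples 1, 2 and 3, against 10868, 18477 and 16475 in the high-fat samples. The groups did not overlap, though by little: probiotic sample 1 and high-fat sample 1 were nearly equal, at 13.40 and 13.41 after normalization. The means were 12.99 ± 0.357 in probiotic and 13.81 ± 0.349 in high-fat samples (SD, n = 3 each), for a log2 difference of -0.82 (95% interval -1.33 to -0.31). With the Actb covariate it was -0.377, and with any single sample left out it lay between -1.03 and -0.678.

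Crp encodes C-reactive protein, a pentraxin that binds phosphocholine on bacteria and dying cells. It had deposited signals of 25421, 15383 and 21574 in probiotic samples 1, 2 and 3, against 25779, 41912 and 29959 in the high-fat samples. Probiotic sample 2 was the lowest and high-fat sample 2 the highest, and probiotic sample 1 came close to high-fat sample 1. Normalized log2 signals averaged 14.33 ± 0.306 in probiotic and 14.91 ± 0.142 in high-fat samples (SD, n = 3 each), for a difference of -0.57 (95% interval -0.95 to -0.19). The difference was -0.158 with the Actb covariate, between -0.699 and -0.412 with any single sample left out, and -0.311 without both of these sample 2 arrays (adjusted p = 0.988, limma).

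Orm1 encodes alpha-1-acid glycoprotein, a heavily glycosylated carrier of drugs and lipids. It had deposited signals of 51730, 38393 and 40559 in probiotic samples 1, 2 and 3, against 42516, 85744 and 54706 in the high-fat samples. Probiotic sample 1 lay above high-fat sample 1, so the groups overlapped. The log2 difference was -0.26 (95% interval -0.58 to 0.06). It was -0.0819 with the Actb covariate, -0.151 without both sample 2 arrays and -0.436 without normalization between arrays.

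Among the scavengers of haemoglobin and haem, Hp showed no separation of the groups and Hpx a small one that depended on the scale. Hp encodes haptoglobin, which binds free haemoglobin for uptake by macrophages. Its deposited signals were 65517, 71065 and 71740 in the probiotic samples, against 60057, 112873 and 65376 in the high-fat samples. Apart from high-fat sample 2, these lay within a narrow band. After normalization the difference was 0.01 (95% interval -0.23 to 0.25), and its sign turned under 7 of 16 other settings, between -0.136 and 0.0504. The interval leaves room for a change of up to about 0.25 in either direction, and p above the threshold does not show that the groups were alike.

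Hpx encodes hemopexin, which binds free haem. Its deposited signals were 57733, 54175 and 57495 in probiotic samples 1, 2 and 3, against 51610, 91090 and 63360 in the high-fat samples, and the groups overlapped. After normalization they did not, at 15.90, 15.88 and 15.78 against 15.92, 15.92 and 16.02. The log2 difference was -0.10 (95% interval -0.33 to 0.13), and it was -0.0624 without high-fat sample 3, -0.194 with median centring and -0.243 without normalization between arrays.

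The members that belong to the inter-alpha-trypsin inhibitor family, of which some heavy chains attach to hyaluronan in the extracellular matrix, differed little. Itih3 had deposited signals of 57825, 51546 and 57793 in the probiotic samples, against 50924, 73379 and 57425 in the high-fat samples. The log2 difference was 0.02 (95% interval -0.22 to 0.26) and turned sign under 6 of 16 other settings. Itih4 had deposited signals of 42574, 33994 and 45148 in the probiotic samples, against 42027, 62943 and 47322 in the high-fat samples. Its normalized values were 15.40, 15.17 and 15.50 in the probiotic group, each below the high-fat values of 15.52, 15.51 and 15.54 though probiotic sample 3 by little. The Itih4 difference was -0.17 (95% interval -0.44 to 0.10), -0.0753 without probiotic sample 2 and -0.0246 with the Actb covariate, but -0.264 with median centring and -0.313 without normalization between arrays. The other measured genes of the family, Itih1, Itih2 and Ambp, which encodes the light chain bikunin, had differences of 0.05, -0.12 and -0.01 (SE 0.12, 0.14 and 0.1), and 0 of these 3 passed the adjusted test.

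**Figure D3:**
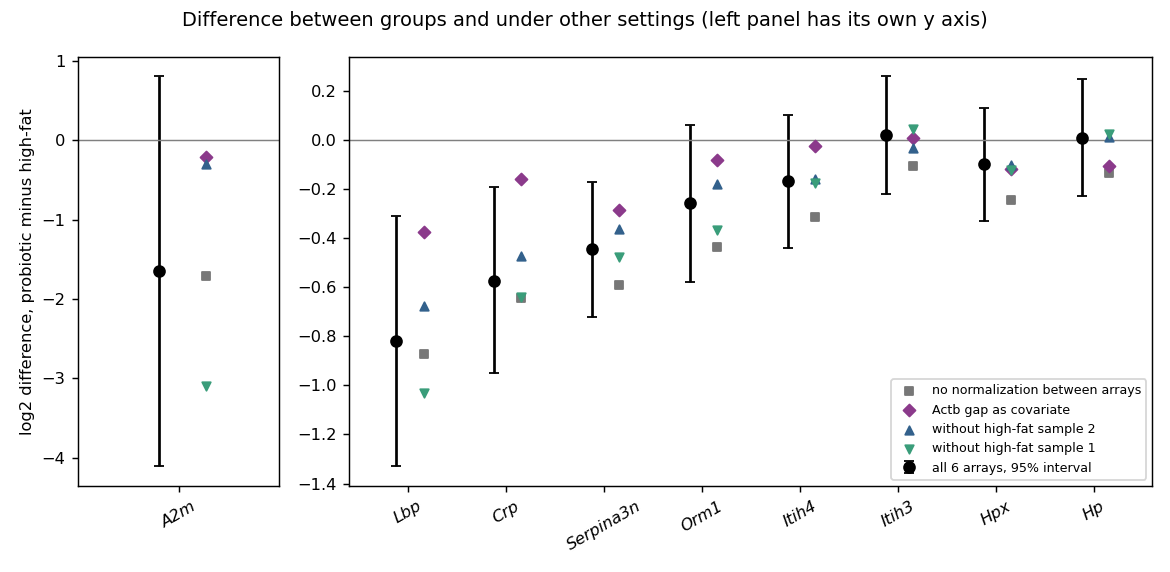
Log2 difference of each gene, probiotic minus high-fat, with its 95% interval from limma on all 6 arrays (black), and the value under 4 other settings (coloured). The interval of A2m runs from -4.11 to 0.81, those of Lbp, Crp and Serpina3n lie below 0, and the values with the Actb covariate lie nearer to 0 for 7 of the 9 genes, Hp and Hpx being the exceptions.

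Further proteins of the acute phase gave the wider setting. Of 22 measured genes listed here as other positive acute phase proteins, 18 had lower and 4 higher values in the probiotic group, and 0 passed the adjusted test in either direction. The median log2 difference was -0.138, against 0.00416 over all probe sets tested. The 3 of smallest p were Hamp, which encodes the iron hormone hepcidin (-0.88, SE 0.21), Fgb, the beta chain of fibrinogen (-0.29, SE 0.1), and Serping1, the inhibitor of complement C1 (-0.38, SE 0.17). Their adjusted p was 0.726, 0.726 and 0.728 in limma. Fgb had normalized values of 15.85, 15.71 and 15.90 in the probiotic samples, against 16.10, 16.11 and 16.11 in the high-fat samples, without overlap. On the deposited scale its groups overlapped, with 60242 in probiotic sample 3 and 57204 in high-fat sample 1. Another probe set of Fgb gave -0.44 (SE 0.43). The place of Rgn, Ambp and Pzp in this list is uncertain, and their differences of -0.05, -0.01 and -0.12 count among the 18 lower.

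Negative acute phase proteins, whose plasma levels decline in inflammation, split evenly. Of 10 measured genes 5 were higher and 5 lower, 0 passed the adjusted test, and the median was 0.00562. Several of the 10 lay near the top of the range. In high-fat sample 1, Gc, Alb and Ahsg had deposited signals of 65389, 55435 and 50568, where the highest was 66425. Differences there may be compressed, which was not tested, so the median near 0 does not show that the groups were alike. Beside Mug1, the genes of smallest p were Rbp4, the retinol carrier (0.14, SE 0.11), and Serpina6, the corticosteroid carrier (0.18, SE 0.15), with adjusted p of 0.779 and 0.798 in limma.

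Genes of cytokine signalling to hepatocytes also went both ways, with 14 of 22 measured genes higher, 8 lower and 0 past the adjusted test, and a median of 0.123. Il6 and Tnf, which encode the cytokines interleukin-6 and tumour necrosis factor, and Lifr lay below the signal filter. Stat3 had normalized values of 9.12, 10.50 and 10.49 in the probiotic samples, against 11.46, 12.57 and 12.86 in the high-fat samples, a difference of -2.26 (SE 0.44, adjusted p = 0.688, limma). The cytokine gene Il1b (-1.47, SE 0.4), the TNF receptor gene Tnfrsf1a (-1.09, SE 0.31) and the interleukin-1 receptor gene Il1r1 (-1.44, SE 0.42) each had an adjusted p of 0.726 in limma. Together with Stat3 they were the 4 of 22 genes that were lower in the probiotic group with no overlap (background 6.7%), and 2 of 22, Hnf4a (0.28) and Nfkbia (0.77), named after their values were seen, were higher with no overlap (background 6.02%). Other probe sets gave -0.98 for Stat3, -1.96 and -2.02 for Il1r1, and, with the opposite sign, -0.61 and -0.39 for Hnf4a. Il1r1 was 10.83, 10.47 and 10.75 in the probiotic samples, against 10.94, 12.63 and 12.81 in the high-fat samples. As with A2m and Lbp, high-fat samples 2 and 3 were the highest. For Il1r1 high-fat sample 1 lay close to the probiotic samples. For Lbp it was close to probiotic sample 1 only (13.41 against 13.40), and for A2m it lay below all probiotic samples. The interleukin-6 receptor gene Il6r and the C/EBP genes Cebpb and Cebpd had differences of 0.25, 0.28 and 0.21 (SE 0.4, 0.36 and 0.31), with overlap, and another probe set of Cebpd gave -0.86.

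The mean of the 9 genes, each centred on its own mean, was -0.06, -0.30 and -0.31 in probiotic samples 1, 2 and 3, against -0.18, 0.58 and 0.27 in high-fat samples 1, 2 and 3. With A2m left out, the probiotic samples had -0.03, -0.25 and -0.16, against 0.06, 0.21 and 0.17 in high-fat samples 1, 2 and 3, so that the low value of high-fat sample 1 came from A2m. The 5 genes of 10564 searched whose profile over the 6 samples was most like the mean of all 9 were Nubp2, Socs3, Gnpat, Atp6v0e1 and Rdh16, with Pearson's r of 0.9937, 0.9919, 0.9913, 0.9878 and 0.9872, given as a description over 6 samples in which A2m carries most of the range. Socs3 encodes a feedback inhibitor of interleukin-6 signalling that STAT3 induces. It had normalized values of 7.64, 7.28 and 7.03 in the probiotic samples, against 7.26, 8.95 and 8.26 in the high-fat samples, a difference of -0.84 (SE 0.43, adjusted p = 0.732, limma) with overlap through high-fat sample 1.

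**Figure D4:**
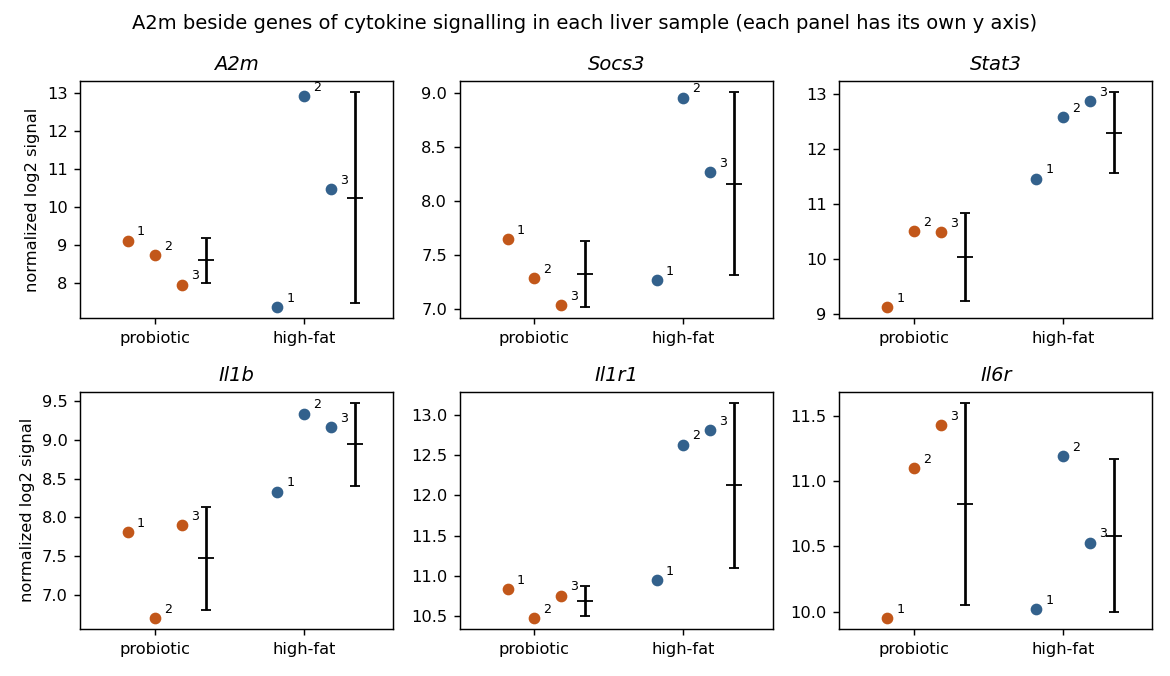
Normalized log2 signal of A2m and of 5 genes of cytokine signalling in each sample (points, numbered by sample), with mean and SD beside each group of 3. High-fat samples 2 and 3 are the highest for A2m, Socs3, Stat3, Il1b and Il1r1, and Il6r overlaps between the groups.

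Genes for receptors that take up or act with the member proteins had lower values in the probiotic group for 8 of 9 measured genes, with a median of -0.191 and 0 past the adjusted test. The 3 of smallest p were Ly96, a partner of the endotoxin receptor (-0.43, SE 0.26), Cd163, the macrophage receptor for haptoglobin bound to haemoglobin (-0.38, SE 0.28), and Asgr2, a subunit of the hepatocyte receptor for desialylated glycoproteins (-0.19, SE 0.15). Markers of Kupffer cells, the macrophages of the liver, lay in the same direction as most members: 11 of 11 measured genes had lower values in the probiotic group, with a median of -0.364. Their summed deposited signal was 16673 to 19163 in the probiotic samples and 18871 to 24878 in the high-fat samples, so these sums overlapped. Their mean normalized log2 signal did not overlap, at 10.12, 10.02 and 10.27 in probiotic samples 1, 2 and 3, against 10.35, 10.68 and 10.45 in high-fat samples 1, 2 and 3. Gene by gene, 3 of the 11 (C1qc, Csf1r and Lyz2) were lower with no overlap (background 6.7%). The groups overlapped for the rest, among them Clec4f (-0.19), Adgre1 (-0.15) and Mrc1 (-0.10). For neutrophil markers 4 of 5 measured genes were lower, with summed signals of 582 to 744 in probiotic samples and 1064 to 1505 in high-fat samples. Csf3r, Camp and Cxcr2 lay below the signal filter. Only 1 of the 5, S100a9, had no overlap, at 128.4 to 294 in probiotic samples and 365 to 771.9 in high-fat samples. S100a8, Ncf1, Fcgr3a and Mmp8 overlapped, and Mmp8 was higher (0.16). Erythroid and platelet markers were higher for 5 of 5 genes, with summed signals of 31181 to 54688 in probiotic samples and 20221 to 26128 in high-fat samples. Most of each sum was the haemoglobin gene Hbb, at 28962 to 49053 in probiotic samples and 18861 to 25009 in high-fat samples. The groups overlapped for Bpgm and for the platelet genes Pf4 and Ppbp. The part of these cells in the values of the members was not tested.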

How the data were processed

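Per the labels' protocols, total RNA was extracted with Trizol and 8 ug was labelled for 1-colour Affymetrix arrays. The authors deposited 1 linear intensity per probe set and array; the sources used here do not give the software and settings behind it. The values have the same mean on every array after removing the top and bottom 2%, as global scaling gives. Here log2(intensity + 16) was quantile normalized, and 18625 of 31042 probe sets at or above the 40th percentile of mean signal were tested with limma 3.58.1 in R 4.3.3 (lmFit, eBayes with trend, two-sided, Benjamini-Hochberg, threshold 0.05). Differences are probiotic minus high-fat on this scale, which understates those of dim probe sets. Symbols came from the platform annotation; of 20832 probe sets with 1 symbol, 20764 matched RefSeq of GRCr8 by gene identifier and 0 symbols changed. Genes with several probe sets are represented by the brightest.

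Members and lists were chosen with earlier results of these data known. Genes named beside the members are the 3 of smallest p in each list, a fixed set of regulators and the 5 most similar profiles, and Pzp, Hnf4a and Nfkbia were added after their values were seen. On simulated data for this comparison (18625 probe sets, 200 changed, 20 runs) the fit called 0.7% of 1.5-fold, 9.4% of 2-fold and 49.8% of 4-fold changes. It made 2.3 false calls per run on average. The changed probe sets were drawn at random from all those tested, with independent noise. These shares therefore do not describe the members, most of which were far brighter than the average probe set. The number of arrays limits precision. Alternatives covered normalization, pseudocount, filter, variance model, weights, replicate block, RNA quality and left-out samples. Figures used matplotlib 3.10.9.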

Additional observations from a re-analysis of the deposited data

How the results depend on the processing

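Under all 16 other settings 0 of the 9 probe sets passed the adjusted threshold in limma (lowest adjusted p 0.232, without probiotic sample 1), with 7 to 9 of 9 genes lower, and the 7 genes that were lower with all 6 samples in the fit were lower under each. The median over the 9 genes was -0.387 with median centring, -0.436 without normalization and -0.117 with the Actb covariate, and -0.375 to -0.178 with single samples left out. Hp turned to -0.0871 with median centring, -0.136 without normalization, -0.00106 with array weights, -0.105 with the Actb gap and -0.0445 without both sample 2 arrays, and ranged from -0.0517 to 0.0504 with single samples left out. Itih3 turned to -0.0567 with median centring, -0.106 without normalization, -0.0183 with array weights and -0.024 without both sample 2 arrays, and ranged from -0.035 to 0.0465. The causes were not tested. Of all probe sets, 4 passed, against 3 to 12 with single samples left out (12 without probiotic sample 1, 9 without high-fat sample 1). The count of members without overlap, an alternative added after seeing the data, was 5, against 3 on the deposited scale and 5 to 7 with single samples left out, where the share over all probe sets tested was 10.3% to 14.5% in place of 6.7%. With the replicate number as a block 4 probe sets passed and the lowest adjusted p of a member was 0.578 in limma. Same-numbered samples deviated together with r of 0.144, 0.027 and 0.0774. Probiotic samples 1 and 3 correlated best with the high-fat sample of the same number, and probiotic sample 2 with high-fat sample 3 (r = 0.0674). Since all these r were low, the numbers were not taken as pairs. Averaging probe sets per gene changes nothing, since each member has 1. Hp, Hpx and Itih3 lay near the top of the range on 6 of 6 arrays, where a difference may be compressed.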
